A study of Mus musculus with 40 samples.

Results

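The 180 regions described here are sharp methylation boundaries: pairs of adjacent 1000 bp bins in which one bin had a mean methylation level below 10% and its neighbour a mean above 70%. They were found among 7208 pairs of adjacent bins with at least 3 listed CpG cytosines in each bin, 2.497% of the pairs. The members were chosen by the bin means themselves, taken over the cytosines of a bin and over all 40 mice, so the height of the step between the bins is a description and carries no test. In the following, the bin below 10% is the low bin, the bin above 70% is the high bin, and the step is the high bin minus the low bin in percentage points.

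The data were obtained by Reduced Representation Bisulfite Sequencing (RRBS), which reads the methylation of CpGs near the sites of the enzyme MspI, from the livers of 40 male C57BL/6 mice of 9 weeks of age. The mice fell into 4 groups of 10. Written as maternal diet/post-weaning diet, with LF for low fat and HF for high fat, these were LF/LF, LF/HF, HF/LF and HF/HF, all without any genetic change. The dams ate their diet before and during pregnancy and until weaning, and the males were then put on either diet. Some mice of the same group, or of groups with the same maternal diet, may therefore be litter-mates. The labels do not name the litters, and every test below treats the mice as independent. Maternal diet was given to the dams, so litter-mates within a group are not independent replicates of it. The p of the maternal comparisons may therefore be too small.

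In mammals, most CpGs are methylated, while CpG-dense stretches called CpG islands, many of which overlap gene promoters, are mostly free of methylation. The edge of such a stretch, often called its shore, is where the level changes from one state to the other. MspI cuts at CCGG whether or not the inner cytosine is methylated, which places most reads in CpG-dense DNA and leaves the sparse DNA around it thinly sampled. A boundary between neighbouring bins is therefore seen only where both sides hold enough MspI fragments.

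Reads at listed cytosines summed to 2969907 to 23345592 per mouse, and 191653 to 400279 of the 400298 listed cytosines had the required 10 reads in a given mouse, with a median depth of 12 to 50 reads at those cytosines. In the boundary bins, the median depth of a cytosine over mice had a median of 21 reads in low bins and 20 in high bins. These 359 distinct bins hold 3076 listed cytosines (0.768% of all), 2255 of them in low bins and 821 in high bins. Promoter methylation was also read for genes that mark the cells of the liver. Of 26 hepatocyte genes, 8 had listed promoter cytosines, with a median of 4.17%. For genes of other liver cells (6 of 16) the median was 5.81%. Of 22 leukocyte and blood genes, 3 had such cytosines. Among the genes of these lists were Apoh at 1.10%, Cebpa at 1.25%, Kdr at 1.75%, Lck at 5.63% and Itgam at 86.6%.

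The sequences of 4 boundaries show what stands on each side of a step. Windows of 100 bases of the mm9 plus strand are given around the facing cytosines of the largest jump, that is, of the 2 neighbouring listed cytosines that differ most. Capitals mark the CpGs that were listed in the data, and CpGs in small letters had no listed value. At Mocs3, which encodes a sulfurtransferase of molybdenum cofactor synthesis, the low side (chr2:168056798-168056897) averaged 6.91% and the high side (chr2:168057258-168057357), inside the coding exon, 87.1%. Nexn encodes the actin-binding protein nexilin, and its low side (chr3:151928412-151928511) averaged 5.33% against 74.1% on the high side (chr3:151927815-151927914).
Mocs3 low side: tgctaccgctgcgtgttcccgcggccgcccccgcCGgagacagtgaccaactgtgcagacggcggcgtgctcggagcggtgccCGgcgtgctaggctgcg
Mocs3 high side: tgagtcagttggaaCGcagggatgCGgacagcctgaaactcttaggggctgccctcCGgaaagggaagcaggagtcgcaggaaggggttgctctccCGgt
Nexn low side: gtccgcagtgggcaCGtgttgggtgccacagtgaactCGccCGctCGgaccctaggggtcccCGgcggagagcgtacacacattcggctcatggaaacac
Nexn high side: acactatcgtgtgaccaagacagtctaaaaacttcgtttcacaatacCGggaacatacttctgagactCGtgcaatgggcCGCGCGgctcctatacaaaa

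Bach2 encodes a transcriptional repressor known from lymphocytes. The Bach2 windows differ in density, with 12 CpGs on the low side (chr4:32325595-32325694, mean 0.832%) and 4 on the high side (chr4:32324351-32324450, mean 95.4%).
Bach2 low side: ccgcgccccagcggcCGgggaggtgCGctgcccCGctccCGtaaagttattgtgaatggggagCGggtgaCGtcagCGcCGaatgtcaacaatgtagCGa
Bach2 high side: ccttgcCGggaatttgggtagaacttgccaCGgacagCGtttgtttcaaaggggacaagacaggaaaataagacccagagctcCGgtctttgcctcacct

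Rbm15b, which encodes an RNA-binding protein, is shown because it had the shortest distance across a largest jump, and was chosen after its values were seen. Its window (chr9:106787740-106787865) lies wholly inside the coding exon and in the high bin. It holds 6 listed CpGs. From left to right, cytosines at 88.7%, 83.96%, 91.8% and 86.2% are followed by 36.8% and 31.1%.
Rbm15b jump: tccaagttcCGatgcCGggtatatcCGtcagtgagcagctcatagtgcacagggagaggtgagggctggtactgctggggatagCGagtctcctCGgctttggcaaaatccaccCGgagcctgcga

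Over the 180 boundaries, the low-bin mean had a median of 2.25% (0.139% to 9.996%) and the high-bin mean a median of 87.2% (70.3% to 97.8%), which gave a median step of 82.8 points (61.5 to 96.3). The low bins were the better sampled side, with a median of 11 listed cytosines against 4 in the high bins. In 73 boundaries the high bin held only 3. The plot of bin means shows both sides of every boundary.

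**Figure D1:**
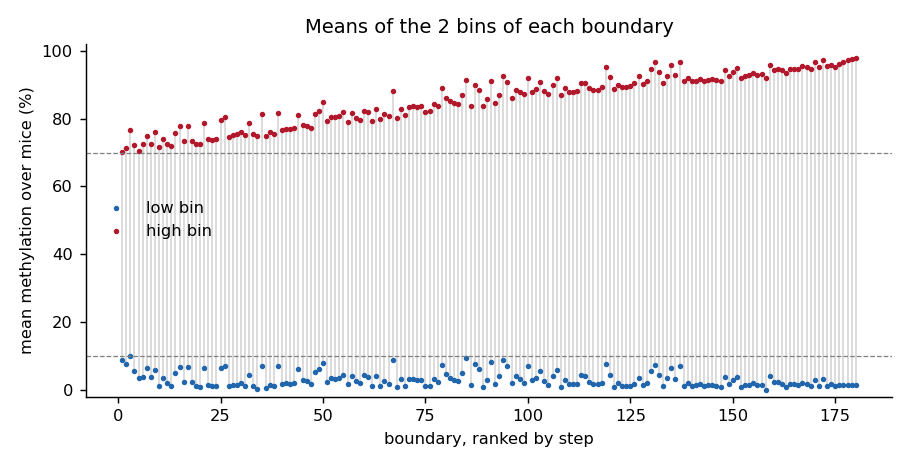
Mean methylation level in percent of the low bin (blue) and of the high bin (red) of each of the 180 boundaries, ranked by step, with dashed lines at the thresholds of 10% and 70%. Steps run from 61.5 to 96.3 points, and the lines are the rule that chose the pairs.

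Near the thresholds, the low bin at the start of Fzd5, a receptor for Wnt ligands, was just inside at 9.996%, and that at 1600002K03Rik was at 9.35%. The pairs at Snx10 (10.01%) and Il27ra (10.6%) were just outside. On the high side, Fam164c (70.3%) and Il17ra (70.4%) were inside, and Greb1l (69.96%) and Snapc2 (69.92%) outside.

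Of the other pairs of adjacent bins, 4685 had both means below 10%, 837 had both above 70%, and 1506 were of neither kind. Boundaries occurred on every autosome, from 0.766% of the pairs on chromosome 13 to 3.61% on chromosome 4, and 0 of the 6 pairs on chromosome X was one. A single boundary lay on an unplaced contig of chromosome 1 and is left out of all counts that need the genome sequence. The low bin lay to the left of the high bin in 84 boundaries and to the right in 96.

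The boundaries with the largest steps, among those with at least 5 listed cytosines in each bin, were all close to the full range. At Nlk, which encodes the serine/threonine kinase Nemo-like kinase, the low bin (chr11:78510001-78511000, promoter) was at 1.48% and the high bin (chr11:78509001-78510000, coding exon) at 97.8%. At Ankrd9 the low bin (chr12:112216001-112217000, promoter) was at 1.33% and the high bin to its left, in the coding exon, at 96.8%. At Bach2 (low bin chr4:32325001-32326000) the values were 1.09% and 95.4%. The boundary nearest to Jmjd1c, a gene of the histone demethylase family, lay 92873 bp from its start, between genes (low bin chr10:66465001-66466000), with 3.36% and 97.3%. At Zdhhc23, which encodes a palmitoyltransferase, the low bin (chr16:43980001-43981000) was at 2.93% and the high bin, mostly in its untranslated exon, at 96.7%.

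The change from one state to the other was located by the 2 neighbouring listed cytosines that differed most. Their distance had a median of 1016 bp (10 to 1797 bp) and was at most 500 bp in 10 boundaries, so in most of them the data place the change only within a stretch about as long as a bin. The jump fell across the edge of the bins in 172 boundaries, inside the low bin in 5 and inside the high bin in 3. Of the CpGs in both bins, a median of 21.2% were listed, and a median of 24 CpGs (0 to 103) stood unmeasured inside the jump. In 170 boundaries a cytosine below 20% directly neighboured one above 60%, and the shortest such distance was 384 bp, at Nkain1. Among boundaries with at least 5 listed cytosines in each bin, the shortest were Mocs3 (391 bp), Nexn (528 bp), Galnt4 (542 bp), Pcyt2 (598 bp) and a boundary 24183 bp from the start of Smad7 (678 bp), which encodes an inhibitory SMAD.

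At 3 boundaries the largest jump spanned at most 200 bp, and all 3 held cytosines of intermediate level. At Rbm15b (low bin chr9:106788001-106789000, high bin chr9:106787001-106788000), it spanned 10 bp, from 36.8% to 86.2%. No cytosine was listed between the 31.1% cytosine at position 106787855 and the first of the low bin, at position 106788507 and 5.98%. At Arhgap39 the jump spanned 96 bp, from 35.3% to 95.3%, and both cytosines were in the high bin. At Parp12 it spanned 177 bp inside the low bin, from 7.93% to 58.9%, followed by cytosines at 31.1% and 61.7% before the high bin at 96.8%.

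**Figure D2:**
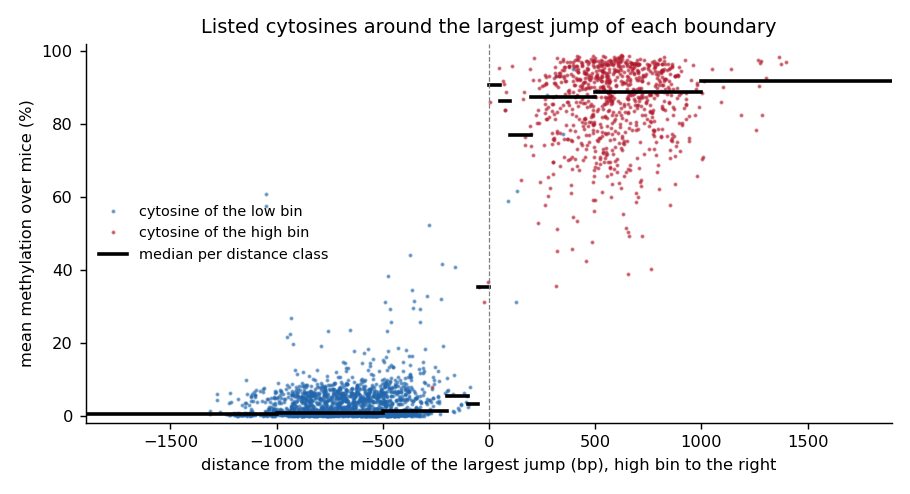
Methylation level over all mice in percent of each listed cytosine of the boundary bins against its distance in bp from the middle of the largest jump, with the high bin to the right, and the median in each distance class (black). Cytosines 200 to 500 bp to the left had a median of 1.35%, those 200 to 500 bp to the right 87.5%, and few cytosines lie closer.

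Most bins were of 1 state throughout. All listed cytosines were below 20% in 160 low bins and above 60% in 157 high bins, and both held in 141 boundaries. In 6 low bins a cytosine was above 60%. At Galnt4, which encodes an enzyme of O-glycosylation, the low bin began with 13 cytosines at 0 to 6.71% and ended with 1 at 88.1%, 542 bp further into the coding exon, so its edge lay inside the bin. At Vstm2l the low-bin cytosine nearest to the high bin was at 93.2%, and at Mettl22 one was at 95.2%. The only high bin with a cytosine below 20% was that of Adprhl2, where it was at 7.77% and stood 15 bp from the nearest cytosine of the low bin.

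The next bins outward were measured less often. Beyond the low bin, 72 boundaries had a further bin with at least 3 listed cytosines, and 68 of these were below 10% as well (94.4%). Beyond the high bin this held for 14 boundaries, and 13 of those bins were above 70%. A low bin with a high bin on each side was found once, at 5430437P03Rik, where the bin chr8:73920001-73921000 was at 0.875% between neighbours at 80.3% and 91.2%. Apart from this bin, Ankrd9 was the only other gene nearest to more than 1 boundary (177 genes named).

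The low and high bins differed in sequence, which the rule did not use. On the reference chromosomes, the low bin held more CpGs than its neighbour in 164 of 179 boundaries, with a median of 50 CpGs per bin against 17. Its G+C content was higher in 157, with a median of 57.6% against 50.3%. The ratio of observed to expected CpGs was higher in 167, with medians of 0.615 and 0.293. By the usual limits for a CpG island, more than 50% G+C and a ratio above 0.6, 92 low bins (51.4%) and 7 high bins (3.91%) qualified. Among the bins of all pairs, 61.9% of those below 10% and 2.30% of those above 70% did. These shares were counted without a test. Exceptions to the common order included Ankrd9, with 35 CpGs in the low bin and 69 in the high bin, and Galnt4 (33 and 44).

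The hexamer GGGCGG, the core of the GC box, was searched on both strands. It occurred in 78.7% of low bins and 27.9% of high bins, next to 79.7% and 30.3% of the bins below 10% and above 70% in all pairs. The pentamer CCAAT, also on both strands, occurred in 60.1% of low bins and 72.1% of high bins. In all pairs it occurred in 62.7% and 67.3%. These matches describe the letters of the bins only.

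Low bins lay mostly at the starts of genes. Of their 2255 cytosines 78.3% were in a promoter, taken as 1000 bp before to 500 bp after a transcript start, next to 75.2% in the bins below 10% of all pairs. Of the 821 cytosines of the high bins, 16.4% were in promoters, 29.4% in coding exons, 23.8% in introns and 24.7% between genes. A low bin held the start of a protein-coding transcript in 106 of 179 boundaries (59.2%, next to 51.7% of such bins in all pairs), and the high bin did in 14. In those 106 boundaries, the high bin lay downstream of the start in 61 and upstream in 45. In 29 boundaries the low bin was over 5000 bp from any such start.

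Genes were also listed by function. There were 0 boundaries among 70 developmental regulators, 22 Hox genes, 10 imprinted genes, 9 genes of fatty acid synthesis and oxidation, 9 nuclear receptors and 8 housekeeping genes with a promoter bin in a pair. The same was found for 7 writers, erasers and readers of DNA methylation, 6 genes of glucose handling and insulin signalling, 5 genes of other liver cells, 4 of cholesterol synthesis and uptake and 2 germline genes. Of the 22 leukocyte and blood genes, 20 were in the annotation, 3 had listed promoter cytosines and 0 had a promoter bin in a pair. These counts stand next to 2.497% of all pairs.

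Within the low bins, the level of a cytosine differed by its place in the MspI site. Cytosines inside a CCGG had a median of 5.93% (quartiles 4.69% and 7.34%, 529 cytosines), and those elsewhere 0.529% (0.236% and 1.51%, 1726 cytosines). In 171 of the 174 low bins with both kinds, the CCGG cytosines had the higher mean, by a median of 4.92 points. The same was seen in all bins below 10%, with medians of 5.54% and 0.435%. In the high bins the medians were 87.0% and 89.5%. Of the low cytosines at the largest jump, 81.1% stood in a CCGG. With these cytosines left out, 177 boundaries kept values on both sides, their median step was 87.2 points, and 169 still met the rule. At CpGs read on both strands, the strands differed by a median of 0.414 points in low bins (171 CpGs) and 1.48 points in high bins (48 CpGs).

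**Figure D3:**
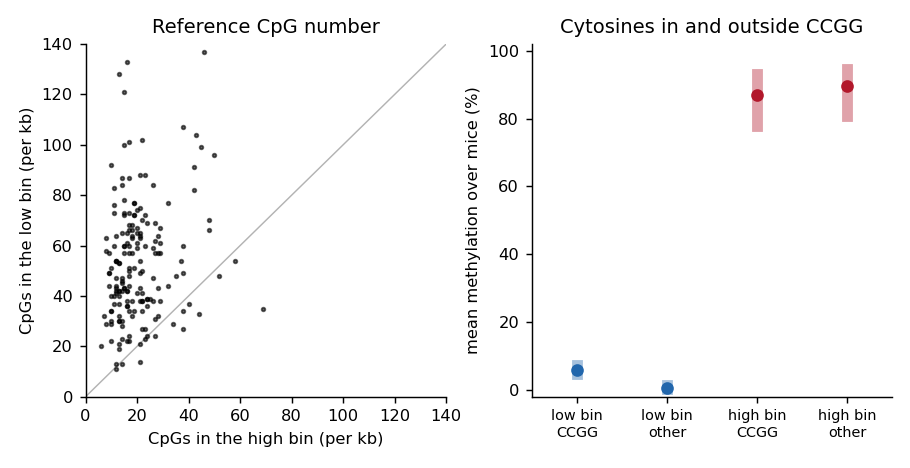
Left, number of CpGs per 1000 bp in the reference for the low bin against the high bin of each boundary, with the line of equality. Right, median and quartiles of the methylation level in percent for cytosines inside and outside CCGG. Most points lie above the line, and low-bin cytosines in CCGG have a median of 5.93% against 0.529% elsewhere.

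With at least 2 covered cytosines per bin, a step was seen wherever a mouse had a value. All 40 mice had a value at 21 boundaries, and the mouse with the fewest had values at 81. Of 6576 steps of a boundary in a mouse with at least 2 covered cytosines in each bin, 6553 were above 50 points (99.7%). The lowest, 29.3 points, was that of Ube2b, a gene for a ubiquitin-conjugating enzyme, in LF/HF replicate 7, whose high bin was at 31.3% there. In all 180 boundaries the lowest high-bin value of any mouse lay above the highest low-bin value. This too is a description, since the bin means chose the members. The minimum of 2 was also set after values under a minimum of 1 had been seen. Under 1, the lowest step was -3.89 points, at Vstm2l, where 4 mice were below 10 points. Over the boundaries covered in a mouse, the share that met both thresholds in that mouse alone ranged from 77.6% to 98.3%. It had a median of 90.5% in LF/LF, 88.2% in LF/HF, 93.1% in HF/LF and 89.3% in HF/HF, and the ranges of the groups overlapped. These shares are a description, since the thresholds chose the members and shallow mice have noisier bins. Over the 21 boundaries with a value in all 40 mice, the mean step per mouse was 82.0 ± 0.907 points in LF/LF, 81.7 ± 1.45 in LF/HF, 82.6 ± 0.955 in HF/LF and 81.8 ± 1.80 in HF/HF (SD, n = 10 each).

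The spread between mice lay mostly on the methylated side. Within groups, the SD of a bin over mice had a median of 1.39 points in low bins and 4.84 in high bins, and the SD of the step a median of 5.18 points. Counting of reads alone would give a step an SD of 4.02 points (median over boundaries). In pairs with both bins above 70% the SD of the difference had a median of 5.88 points, and with both below 10% of 1.80. Among boundaries with values in at least 36 mice, the steadiest over all mice were Rnf187 (SD 2.17 points, steps of 89.4 to 98.4), Pmm2 (2.25 points, 83.4 to 94.0) and Nlk (2.32 points, median 96.4). Pmm2 encodes phosphomannomutase, an enzyme of N-glycosylation. The most variable were Zfp189 (11.2 points, 45.1 to 95.8), Ptp4a3 (9.86 points, 48.9 to 92.4) and Gfod2 (9.39 points, 48.6 to 91.6). The 3 steady ones had 4 to 11 listed cytosines in the high bin and the 3 variable ones 3 or 4, which was not tested as a source of the difference.

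The diet comparisons asked whether the height of a step differed between groups of mice, which the rule did not use. For each mouse the step was the difference of its own bin means. With Student's t-test per pair and Benjamini-Hochberg adjustment over all pairs tested, 0 boundaries passed an FDR of 5% in any of the 4 comparisons or in the interaction of both diets. Nor did any other pair (0% of all pairs in each). Welch's test, the exact Wilcoxon rank-sum test and limma's moderated test also gave 0 boundaries in the 4 comparisons. At an unadjusted p below 0.05, in the order of the comparisons below, Welch's test gave 7 of 150, 10 of 154, 9 of 147 and 10 of 156 boundaries, next to 4.56%, 4.49%, 4.62% and 5.11% of all pairs. Of the same boundaries, the exact Wilcoxon test gave 5, 7, 7 and 11, next to 4.7%, 4.41%, 4.54% and 4.87% of all pairs. The moderated test of limma gave 8, 12, 13 and 17, next to 4.63%, 4.82%, 4.81% and 5.41%.

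For maternal diet in mice fed HF (HF/HF against LF/HF), 7 of 150 boundaries tested had an unadjusted p below 0.05 (4.67%), next to 4.86% of all pairs. The median difference over boundaries was -0.0079 points, and 141 differed by less than 5 points. For maternal diet in mice fed LF (HF/LF against LF/LF), 9 of 154 had such a p (5.84%), next to 4.79%, and the median difference was 0.184 points. For post-weaning diet in the offspring of LF dams (LF/HF against LF/LF), 11 of 147 had one (7.48%), next to 4.81%, with a median difference of 0.0166 points. The 95% interval of the difference lay wholly within 10 points in 117, 127 and 115 of these boundaries, so larger changes are outside the interval for most but not all of them.

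For post-weaning diet in the offspring of HF dams (HF/HF against HF/LF), 13 of 156 boundaries had an unadjusted p below 0.05 (8.33%), next to 5.53% of all pairs, and 11 of the 13 had the lower step in HF/HF. The median difference was -0.625 points over boundaries and -0.0233 over all pairs, and 88 of 156 boundaries were lower in HF/HF. Reads at listed cytosines ranged from 2969907 to 23345592 per mouse in HF/HF, so this group held both the shallowest and the deepest mouse, and the shallowest HF/LF mouse had 6717178. The median depth of covered cytosines per mouse had a median of 21.5 reads in HF/HF and 22 in HF/LF. With the log10 of total reads as a covariate the median difference was -0.296 points, with 14 boundaries at such a p, and with reads pooled over each bin it was -0.320. With each cytosine centred on its mean over mice it was -0.433, and with 5 listed cytosines per bin -0.273. With a minimum of 3 covered cytosines per mouse and bin it was -0.589, and with a minimum of 1 it was -0.807. Depth was not tested as a cause of the difference. For the interaction of both diets, 3 of 131 boundaries had an unadjusted p below 0.05 (2.29%), next to 5.17%.

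**Figure D4:**
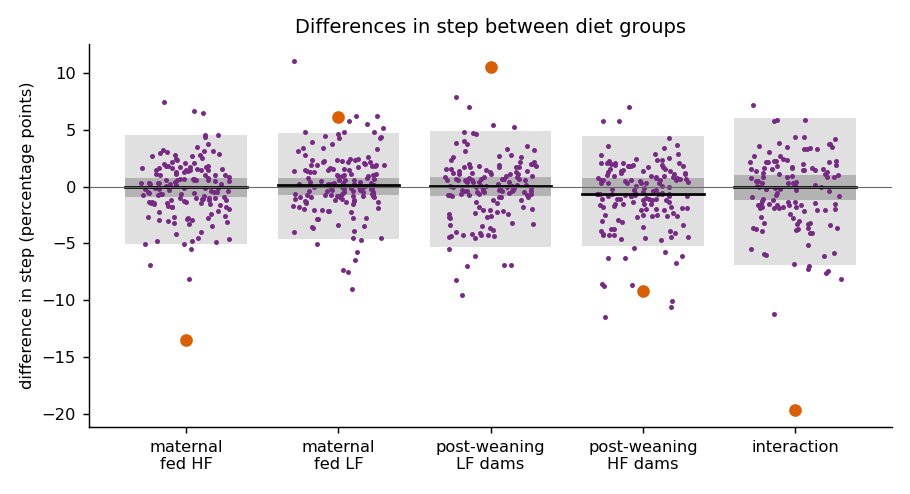
Difference in step in percentage points between the groups of each comparison, and the interaction term, for each boundary tested (points, Gatsl3 in orange, black line at the median), over the middle 50% and 95% of all pairs (dark and light grey). The Gatsl3 boundary lies outside the 95% band in every column, and it shares groups between columns.

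The boundary with the smallest p in 4 of these 5 fits was at the start of Gatsl3, which encodes an arginine sensor of the mTORC1 pathway (also known as Castor1). Its low bin (chr11:4118001-4119000, promoter) was at 7.72% over 20 cytosines, and its high bin (chr11:4117001-4118000, promoter) at 71.4% over 3. The step ranged from 52.2 to 67.9 points in LF/LF, with a median of 59.5. In LF/HF it ranged from 56.4 to 80.3 points, with a median of 73.1. In HF/LF it ranged from 57.0 to 74.7, with a median of 67.2, and in HF/HF from 50.7 to 65.2, with a median of 56.6. The values were thus lowest where both diets were the same and highest where they differed, and the ranges of all groups overlapped. The mean step was 57.1 ± 4.87 points in HF/HF and 70.6 ± 7.67 in LF/HF (SD), a difference of -13.5 points (95% interval -20.3 to -6.77, exact permutation p = 0.00123). In LF/HF it was 10.5 points higher than in LF/LF (60.1 ± 5.04, interval 3.69 to 17.3, exact permutation p = 0.00683). HF/HF and HF/LF (66.2 ± 5.40) differed by -9.14 points (interval -14.3 to -3.94, exact permutation p = 0.00270). The interaction was -19.6 points (SE 4.003), with an adjusted p of 0.168 over all pairs in the linear model with Benjamini-Hochberg adjustment, and did not pass. The adjusted p of the other 3 was 0.961, 0.955 and 0.869, and these comparisons share groups.

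At Gatsl3 the groups differed mainly in the high bin. Its mean was 67.8% in LF/LF, 77.3% in LF/HF, 74.6% in HF/LF and 64.5% in HF/HF, while the low bin was at 8.11%, 7.17%, 8.33% and 9.26%. The low bin ends with a CpG whose cytosines were at 60.9% and 57.4% over all mice, and 1 HF/HF mouse had a low-bin value of 28.2%. Of the 3 high-bin cytosines, that at position 4117726 was at 64.9%, 80.8%, 74.9% and 63.3% in the same order of groups. That at 4117699 was at 48.0%, 59.4%, 56.8% and 45.9%, and that at 4117697 at 90.5%, 91.7%, 92.0% and 84.3%. Steps at Gatsl3 were available in 35 mice, and the 3 cytosines lie on the same strand, close enough to share reads.

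The other boundaries named by smallest p differed by less. At Loxl2, which encodes a lysyl oxidase that cross-links collagen, the step was 84.98 to 90.4 points in HF/HF (median 87.5) and 80.3 to 89.5 in LF/HF (median 84.2), so the groups overlapped. The difference was 3.72 points (interval 1.60 to 5.85, permutation p = 0.00188 with 100000 resamples, adjusted p of 0.961 by Student's t-test over all pairs). At Mettl22 the step was 79.0 to 89.2 points in HF/LF (median 86.0) and 69.3 to 85.7 in LF/LF (median 81.3), 5.74 points higher in HF/LF (interval 1.51 to 9.98, permutation p = 0.00848). With each cytosine centred on its mean over mice the Mettl22 difference was 3.45 points, and with total reads as a covariate it was 3.83 points and no longer had an unadjusted p below 0.05. At Pcyt2, which encodes an enzyme of phosphatidylethanolamine synthesis, it was 80.5 to 88.6 points in HF/LF (median 85.8) and 72.5 to 87.3 in LF/LF (median 80.6), 4.66 points higher in HF/LF (interval 1.18 to 8.14, exact permutation p = 0.0119), and 7.13 points with a minimum of 1 covered cytosine per mouse and bin. Mettl22 and Pcyt2 each had an adjusted p of 0.903 over all pairs.

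At the right-hand boundary of 5430437P03Rik the step was 4.05 points higher in LF/HF than in LF/LF (interval 1.14 to 6.97, exact permutation p = 0.0117), with medians of 91.3 and 86.6 points. At Mrpl21, which encodes a protein of the mitochondrial ribosome, it was 5.80 points higher in HF/HF than in HF/LF (interval 1.48 to 10.1, exact permutation p = 0.0135), with medians of 89.9 and 83.3. At Cd3eap, which encodes a subunit of RNA polymerase I, the interaction was -4.03 points (interval -6.97 to -1.10). Their adjusted p by the fits over all pairs were 0.955, 0.878 and 0.826. The ranges of the compared groups overlapped at each of these boundaries.

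The boundaries named for their step or distance, with Rbm15b, number 11, and 4 of their 40 tests in the 4 comparisons had an unadjusted p below 0.05, at 3 boundaries. Of all pairs, 4.79% to 5.53% had one in a single comparison. The Rbm15b step differed by -4.51 points for maternal diet in mice fed LF (adjusted p of 0.907 by Student's t-test with Benjamini-Hochberg adjustment). At Galnt4 it differed by 2.74 points for post-weaning diet in the offspring of LF dams (adjusted p of 0.955). At Pcyt2, besides the comparison above, it differed by -6.14 points for post-weaning diet in the offspring of HF dams (adjusted p of 0.888). The step at Bach2 was 93.6 ± 3.19 points in LF/LF, 94.6 ± 3.10 in LF/HF, 95.1 ± 1.62 in HF/LF and 94.4 ± 3.12 in HF/HF (SD, n = 10 each). At Mocs3 it was 85.1 ± 5.27, 85.7 ± 2.72, 82.2 ± 4.66 and 85.0 ± 5.25 in the same order. At Rbm15b it was 74.95 ± 3.53, 72.7 ± 5.09, 70.4 ± 4.36 and 70.5 ± 3.96. The ranges over mice overlapped between all groups at these boundaries, as the plot of steps by mouse shows.

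**Figure D5:**
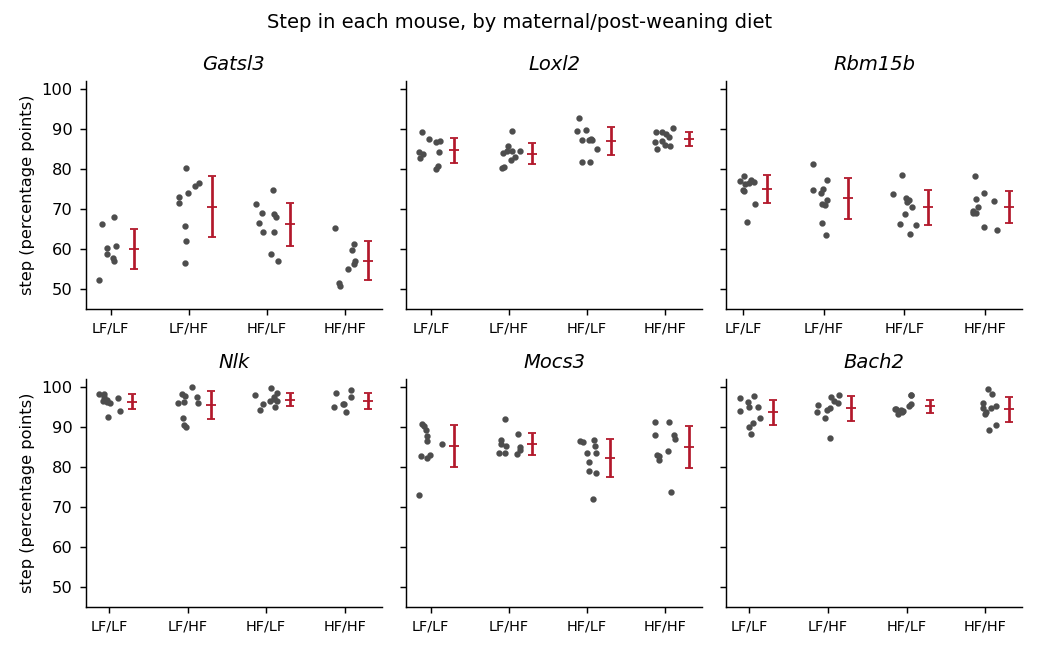
Step in percentage points of each mouse (points) with the group mean and SD (red) at 6 boundaries, by maternal/post-weaning diet; the axis starts at 45 points. At Gatsl3 the group medians run from 56.6 to 73.1 points, and the ranges of the groups overlap at Gatsl3 as at the other 5.

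Single cytosines of the boundary bins were tested in the same 4 comparisons, among all cytosines with 10 reads in at least 36 mice. For maternal diet in mice fed HF, 36 of 1285 low-bin cytosines (2.80%) and 37 of 546 high-bin cytosines (6.78%) had an unadjusted p below 0.05, next to 3.72% of all cytosines tested. For maternal diet in mice fed LF the shares were 2.64% and 4.35%, next to 3.99%. For post-weaning diet they were 2.99% and 3.97%, next to 4.05%, in the offspring of LF dams, and 2.44% and 7.14%, next to 4.06%, in the offspring of HF dams. In the last comparison 28 of the 39 high-bin cytosines were lower in HF/HF. All cytosines tested include those of low and of high level, and the share among highly methylated cytosines alone was not computed. Neighbouring cytosines can share reads, so these counts are not of independent values. At an FDR of 5% by Student's t-test, 0 cytosines of the boundary bins passed in any comparison, and the exact Wilcoxon rank-sum test gave 0 as well. Over all cytosines, 0% passed in both comparisons of maternal diet, 0.000431% (1 cytosine) for post-weaning diet in the offspring of LF dams and 0.00126% (3 cytosines) in those of HF dams.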

How the data were processed

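RRBS libraries from 40 mouse livers were used. Liver DNA was cut with MspI by the authors, and the libraries were size-selected before bisulfite treatment. Reads were single-end. The submitters' processing notes name Bismark and the mm9 build. For each CpG cytosine and mouse, the authors deposited a count of methylated reads and a count of all reads, not normalized, with the total missing under 10 reads. Each listed cytosine had a total in at least 33 mice. Methylated counts without a total were not used, there were 0 columns of unmapped samples, and the separate table of percents was not used.

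Percent methylation was methylated over all reads. Means over mice per cytosine were averaged in 1000 bp bins, and pairs of adjacent bins with at least 3 listed cytosines each were classed by the limits of 10% and 70%. Annotation was GENCODE vM1 on the same build; a boundary carries the name of the protein-coding gene whose start is nearest to its low bin. A mouse's bin value needed 2 covered cytosines, and a test needed 8 mice per group. The minimum of 2 was chosen after the data were seen: the diet tests had first been run and examined with a minimum of 1, and it was raised because the low bin of Vstm2l rested on 1 methylated edge cytosine in 4 mice. The change altered which boundaries are named, and the closing section gives the counts under both. Student's t-test was run per cytosine, as in the study's methods, and applied here to the step of each pair as well, with a linear model for the interaction and Benjamini-Hochberg adjustment over all pairs or cytosines. Permutation tests of named boundaries were two-sided, exact where a group had fewer than 10 mice and with 100000 resamples otherwise.

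The members, gene lists and rules were chosen with earlier results of these data known. Named boundaries were those with the 5 largest steps and the 5 shortest distances (at least 5 cytosines per bin), the 2 smallest p per comparison, the 3 highest and 3 lowest SDs, and those in promoters of listed genes, of which some results are not reported here. The step test was tested on simulated data with known changes in HF/HF. At an FDR of 5%, it recovered 35 of 85 changes of 10 points for maternal diet in mice fed HF. For post-weaning diet in the offspring of HF dams it recovered 52 of 90. Of changes of 20 points it recovered 80 of 86 and 91 of 92. The simulated reads varied by counting only, not between mice, so recovery in the real data may be lower. Alternatives were other tests, coverage limits, bins and thresholds. Python 3.11.15, SciPy 1.17.1 and limma 3.58.1 were used.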

Additional observations from a re-analysis of the deposited data

Results flagged for a closer look

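For the 23 boundaries named in the report, the lowest and highest mouse of each group were compared with the rest of their group by Dixon's ratio at the 95% level. This flagged 9 of 92 groups, where chance alone flags about 1 in 20. Lowest in their group were Galnt4 in HF/LF replicate 2, with a step of 86.6 points (the others 88.4 to 90.3), Mocs3 in LF/LF replicate 5 at 72.9 points (82.2 to 90.6), Bach2 in LF/HF replicate 9 at 87.2 points (92.3 to 98.0) and Cd3eap in HF/LF replicate 5 at 88.98 points (92.0 to 95.5). The Ankrd9 step was lowest at 89.7 points in LF/HF replicate 7 (94.5 to 98.8), at 88.4 points in HF/LF replicate 3 (93.2 to 97.9) and at 92.8 points in HF/HF replicate 10 (95.8 to 98.2). The Pmm2 step was highest in LF/LF replicate 9, at 93.97 points (83.5 to 89.1), and lowest in HF/HF replicate 9, at 83.4 points (87.1 to 91.3). HF/HF replicate 9 was also the mouse with the fewest reads at listed cytosines (2969907). The cause of these values was not tested.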

How the results depend on the processing

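The number of boundaries, 180, depended on what entered a bin. It was 92 with cytosines covered in at least 36 mice, 2 with those covered in all 40 mice and 0 of 25 pairs with a minimum of 20 reads. With 5 or 10 listed cytosines per bin it was 52 or 8, in bins of 500 bp 38, with limits of 5% and 80% 109, and with limits of 20% and 60% 303. These settings change how many pairs can be formed or the limits themselves. Bins shifted by 500 bp gave 186, but only 82 of the 180 boundaries overlapped one of them, so the list depends on where bins begin. Merging strands (178), summing reads over mice (180), autosomes alone (179) and leaving out the deepest cytosines (180) kept the number within 1.5 times.

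The count of boundary bins or cytosines at an FDR of 5% was 0 in all 52 alternatives that could be computed, and 72 of 72 recomputed differences of named boundaries had the same sign. Welch's, the Wilcoxon and limma's tests use the same difference of means, so its sign could not change there. The other settings reuse the same mice, at boundaries named for their small p. The shared sign is therefore no independent support. The adjusted p of the Gatsl3 interaction ranged from 0.145 to 0.228. With a minimum of 20 reads no boundary could be tested. Counts at an unadjusted p below 0.05 stayed within 1.5 times in 38 of 52 alternatives. For post-weaning diet in the offspring of LF dams it fell from 11 to 7 with depth as a covariate. The minimum of 2 covered cytosines per mouse and bin replaced a minimum of 1 after the diet tests under 1 had been seen. Under 1, boundaries at an unadjusted p below 0.05 numbered 8 of 163, 10 of 166, 9 of 163 and 13 of 164 in the 4 comparisons, in the order of the report, and 6 of 152 in the interaction, next to 4.64% to 5.41% of all pairs. Under 2 they numbered 7 of 150, 9 of 154, 11 of 147, 13 of 156 and 3 of 131, next to 4.79% to 5.53%. Under 3, also added after seeing the data, they numbered 4 of 125, 8 of 132, 10 of 122, 13 of 136 and 3 of 99, next to 4.94% to 5.59%. None passed an FDR of 5% under any of them. Under 1, 5 mouse values were below 30 points instead of 1, and 4 of them were at Vstm2l (lowest -3.89 points). No paired analysis was possible because the labels give no number shared between groups. Depth limits single steps, whose SD from read counting alone had a median of 4.02 points.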
